A study of Mus musculus with 6 samples.

Results

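The chemokine ligand transcripts of sham-operated sciatic nerves were taken as every gene whose symbol begins with Ccl, Cxcl, Cx3cl or Xcl followed by a digit, together with the platelet chemokines Pf4 and Ppbp, which gave 41 of the 54309 genes in the files. They were separated by their known regulation into 14 inducible ligands, 13 dual ligands that are both made at rest and induced, 2 platelet ligands, 11 homeostatic ligands and 1 pseudogene, Ccl19-ps1. The nerves came from C57BL/6J mice of 6 to 8 weeks, the left sciatic nerve having been exposed but not cut, and were collected 24 h after that operation. There were 3 female and 3 male samples, named F1 to F3 and M1 to M3, and each was a pool of nerves from 2 mice, so that n counts pools. No allele, drug or injury differed between the sexes. All pools carried the same sham operation and nerves of mice without surgery were not analysed here, so what surgery itself added to these levels cannot be read from the data.

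Chemokines are small secreted proteins that direct the migration of leukocytes by binding G protein-coupled receptors. Homeostatic ligands such as Cxcl12 and Ccl21 position cells in resting tissue, whereas inducible ligands such as Ccl2 and the neutrophil attractants Cxcl1 and Cxcl2 are switched on by inflammatory signals. In peripheral nerve, Ccl2 is known for recruiting monocytes after damage, and resident macrophages, fibroblasts, Schwann cells and endothelium can all make chemokines.

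Levels are given in TPM, a relative abundance of transcripts after division by transcript length that has the same total in each sample, and the tests used estimated read pairs per gene. The libraries held 55949876 to 66285694 estimated read pairs in females and 59165914 to 78473057 in males. The 10 myelinating Schwann cell markers summed to 33775 to 41228 TPM in female and 39125 to 43000 TPM in male pools, and of 10 keratinocyte markers Krt5 and Dsg3 were at 0 in all 6 pools. F2 stood apart from the other pools by 12 fast skeletal muscle markers, which summed to 4100 TPM there and to 21.4 to 251 TPM elsewhere. F3 stood apart by 8 erythroid markers, which summed to 30870 TPM there and to 5065 to 14195 TPM elsewhere, and by 10 adipocyte markers, at 1958 TPM there and 1001 to 1336 TPM elsewhere. Whether fewer cells of a type or less RNA per cell underlies a lower level in such whole-tissue samples cannot be told apart.

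Chemokine ligand transcripts summed to 8509, 6846 and 6727 TPM in F1 to F3 and to 6011, 6100 and 7479 TPM in M1 to M3. The mean was 7361 ± 996 TPM over the female pools, against 6530 ± 823 TPM over the male pools (SD, n = 3 pools each), and the sexes overlapped. Few genes carried most of this sum. The 4 ligands with the highest mean TPM over all pools held 48.9 to 57.9% of the sum of a pool. The 7 highest by that mean held 68.0 to 77.0%, and the 12 highest held 82.3 to 88.8%. Of the 41 ligands, 14 averaged above 100 TPM, 20 lay between 1 and 100 TPM and 7 stayed below 1 TPM. Down the order of mean levels, the pools of neighbouring ligands overlapped except between Ccl6 and Pf4, Cxcl5 and Ccl11, Cxcl13 and Ccl19, Ccl5 and Ccl25, and Xcl1 and Ccl28.

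**Figure D1:**
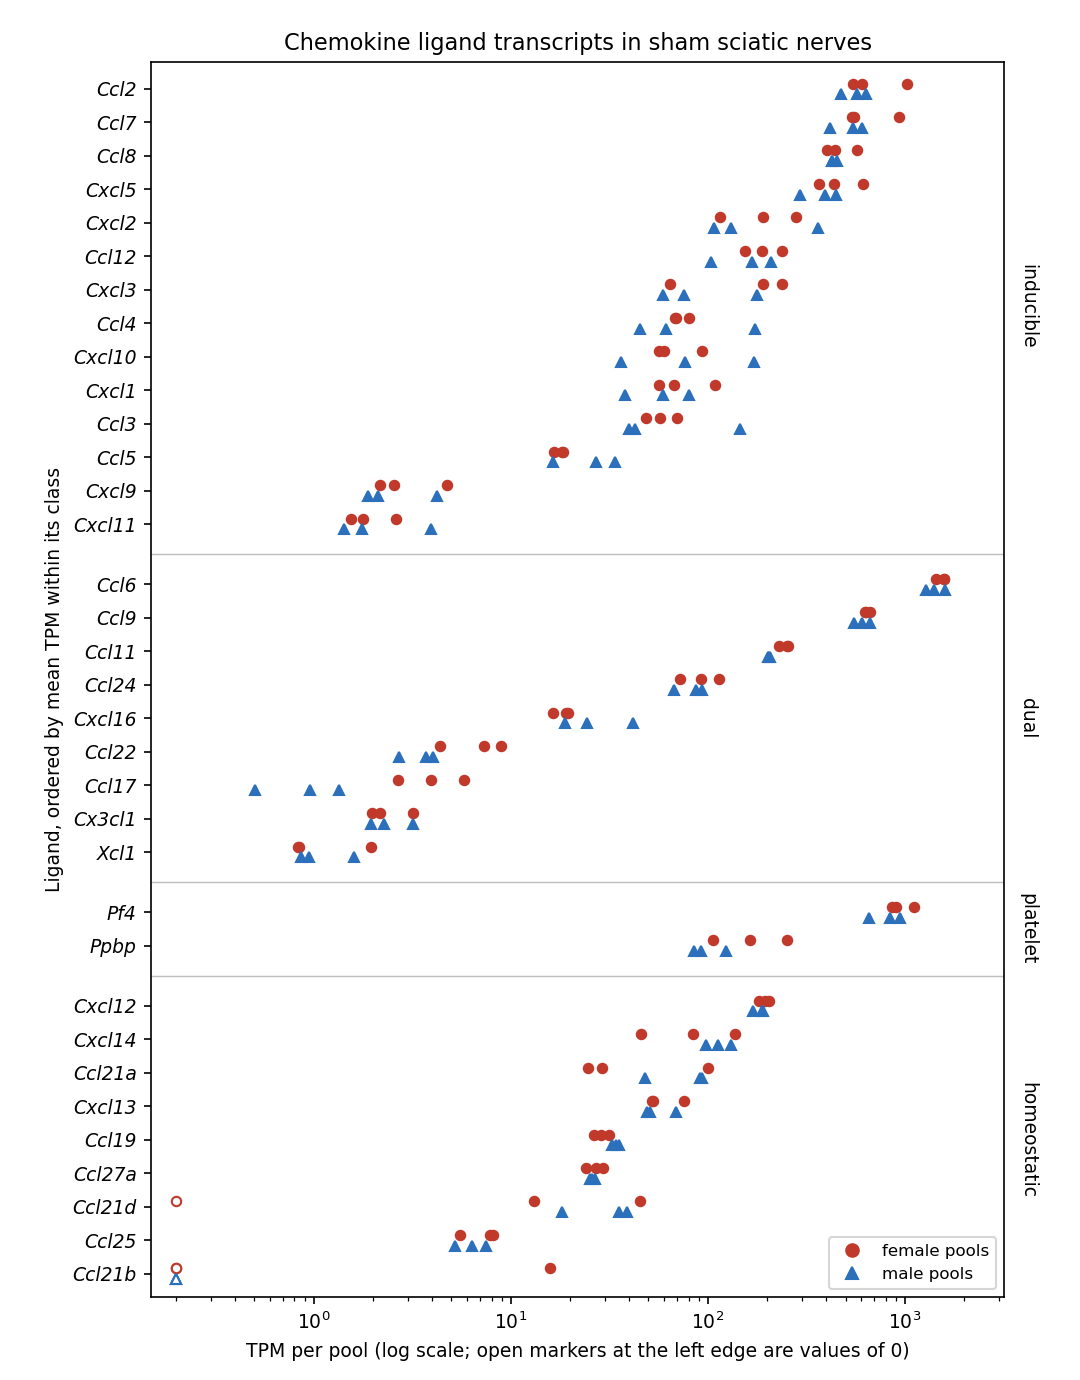
TPM of the 34 chemokine ligands with a mean of at least 1 TPM, on a log axis, with 1 marker per pool (red circles, female; blue triangles, male; open markers, a value of 0) and the ligands grouped by class. Ccl6 lies highest with all pools between 1288 and 1606 TPM, and of the 4 ligands without overlap between the sexes among those tested (Ccl11, Ccl17, Ccl22 and Ccl19), Ccl17 shows the widest gap.

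The dual ligands held 34.9 ± 3.41% of ligand TPM in females and 36.5 ± 4.74% in males (SD, n = 3 pools each), with 3 of the 13 above 100 TPM (Ccl6, Ccl9 and Ccl11) and 4 below 1 TPM. Ccl6, a myeloid CC chemokine of rodents that acts on Ccr1, was the highest ligand in every pool, at 1577, 1439.8 and 1572 TPM in female and 1288, 1606 and 1410.0 TPM in male nerves. Ccl9, its neighbour on chromosome 11 and also a Ccr1 ligand, was at 665, 631 and 636 TPM in female and 549.7, 609 and 665 TPM in male nerves. Both genes were even across the pools, with a highest to lowest ratio of 1.25 for Ccl6 and 1.21 for Ccl9, and the sexes overlapped. The log2FC, the log2 fold change in female relative to male nerves from edgeR's quasi-likelihood test, was 0.07 for Ccl6 and 0.06 for Ccl9 (standard error 0.10 for each), with adjusted p of 0.93 and 0.94.

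The platelet ligands held 15.3 ± 0.600% of ligand TPM in females and 13.99 ± 1.496% in males (SD, n = 3 pools each). Pf4, platelet factor 4, ranked after Ccl6, at 1109, 858 and 902 TPM in female and 657, 839 and 949 TPM in male nerves. Ppbp, whose product is cleaved to a Cxcr2 ligand in activated platelets, was at 252, 165 and 106 TPM in female and 84.9, 92.4 and 124 TPM in male nerves. F1 was highest and M1 lowest for both genes, and the sexes overlapped. The log2FC was 0.24 for Pf4 (standard error 0.18, edgeR adjusted p = 0.88) and 0.73 for Ppbp (standard error 0.34, edgeR adjusted p = 0.83). Without F1 it was 0.10 for Pf4 and 0.36 for Ppbp, and without M1 it was 0.08 for Pf4. The 10 other markers of platelets and megakaryocytes together came to 18.01 to 22.7 TPM in female and 14.2 to 18.4 TPM in male pools. Most of that sum was Itga2b, and Gp1ba, Gp5 and Gp6 averaged 0.11, 0.20 and 0.17 TPM. Macrophages also make Pf4, and 14 macrophage markers summed to 4149 to 4383 TPM in female and 4674 to 6034 TPM in male pools. Lyz2 was the largest part of those sums. The part of either cell type in the Pf4 level was not tested.

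The inducible ligands held 43.2 ± 3.84% of ligand TPM in females and 41.3 ± 6.17% in males (SD, n = 3 pools each). All 14 averaged above 1 TPM and 7 averaged above 100 TPM, with a median percentile of 91.0 among the genes tested. Ccl2, the principal monocyte attractant through Ccr2, was at 1030.5, 607 and 544 TPM in female and 574, 477 and 634 TPM in male nerves. Ccl7, a further Ccr2 ligand, followed it closely at 937, 539 and 549 TPM in female and 546, 416 and 605 TPM in male nerves. Both genes stood highest in F1 and lowest in M2, and the other 4 pools lay close together.

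Ccl12, the third monocyte attractant of this gene cluster, was at 238, 155 and 189 TPM in female and 167, 104 and 210.3 TPM in male nerves, again highest in F1 and lowest in M2. Ccl8, which in mice acts on Ccr8, was at 440, 401 and 569 TPM in female and 428, 455 and 427 TPM in male nerves. Its highest pool was F3, and its highest to lowest ratio of 1.42 was the smallest among the inducible ligands. With the eotaxin gene Ccl11, these genes lie within 81.2 kb of chromosome 11, at positions 81926397 to 82007625 of GRCm39. The log2FC values were 0.33 for Ccl2 and for Ccl7, 0.21 for Ccl12 and 0.10 for Ccl8, with adjusted p of 0.88 to 0.93 from edgeR. Without F1 they were 0.003 for Ccl2, 0.04 for Ccl7 and 0.05 for Ccl12, and without F3 that of Ccl8 was -0.07.

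Of the neutrophil attractants acting on Cxcr2, Cxcl5 was the highest, at 615, 436 and 367 TPM in female and 447, 294 and 395 TPM in male nerves. Cxcl2 was at 191, 279 and 115 TPM in female and 131, 107 and 361 TPM in male nerves. Cxcl5 stood highest in F1, whereas Cxcl2 was highest in M3 and high in F2, and both were lowest in M2. Cxcl3, named after its values were seen, followed the pools of Cxcl2 in part, with 191, 239 and 64.0 TPM in female and 75.3, 59.4 and 177 TPM in male nerves. The 12 neutrophil markers summed to 4735, 5971 and 3381 TPM in female and 4718, 3673 and 4475 TPM in male pools. Most of each sum was S100a8 and S100a9. The part of neutrophils in the differences between pools was not tested. Cxcl2 shared 7.59% of its runs of 31 bases with Cxcl3 in the reference transcripts, so most of either transcript could be assigned by sequence. The log2FC was 0.23 for Cxcl5 (standard error 0.20, edgeR adjusted p = 0.88) and -0.08 for Cxcl2 (standard error 0.58, edgeR adjusted p = 0.99).

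By the median ligand, the inducible class differed most from pool to pool. Its median ratio of the highest to the lowest pool was 2.64 over 14 ligands, against 2.33 over 2 platelet, 1.70 over 9 dual and 1.55 over 7 homeostatic ligands with a value above 0 in each pool and a mean of at least 1 TPM. M2 was the lowest pool for 12 of the 14, the exceptions being Ccl8 and Cxcl9. F1 was the highest pool for Ccl2, Ccl7, Cxcl5, Ccl12, Cxcl1 and Cxcl9, and M3 was the highest for Cxcl2, Ccl4, Cxcl10, Ccl3, Ccl5 and Cxcl11. The macrophage attractants Ccl3 and Ccl4, chosen with Cxcl10 after their values were seen, reached 146 and 174 TPM in M3, where the other 5 pools lay at 40.0 to 69.9 TPM and 45.5 to 80.4 TPM. Cxcl10, an interferon-inducible ligand of Cxcr3, reached 172 TPM in M3 and 36.5 to 93.9 TPM in the other 5. Each pool is 1 sample of its sex, so a set of ligands that is high in a single pool is a description of that pool and not of a sex.

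**Figure D2:**
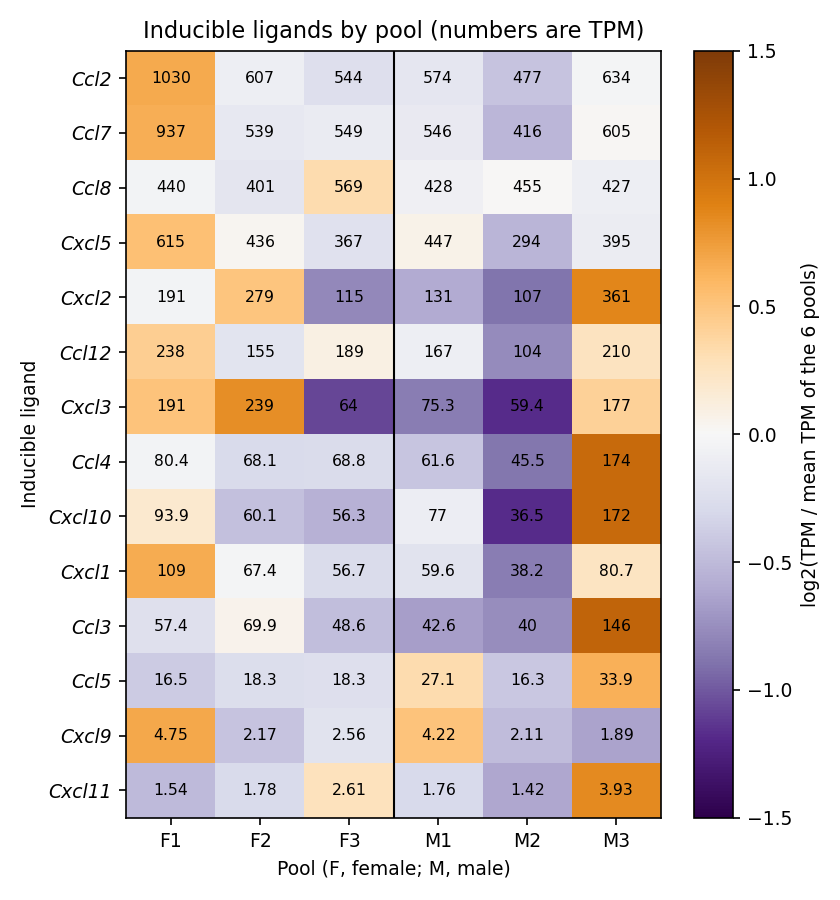
Each cell gives the TPM of an inducible ligand in a pool, colored by its log2 ratio to the mean of the 6 pools, with female pools left of the line and male pools right of it. M2 holds the lowest value of 12 of the 14 ligands, while F1 and M3 hold the highest value of 6 ligands each.

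The bases before the start sites of Cxcl1, Cxcl2, Cxcl3 and Cxcl10 are shown because these inducible genes, which differed 2.84-fold to 4.72-fold between pools, hold a match to the consensus site of NF-κB, the transcription factor best known for inducing them. The last 120 bases before each start are printed 5′ to 3′ on the gene's strand from RefSeq on GRCm38.p6, with the match in capitals.
Cxcl1: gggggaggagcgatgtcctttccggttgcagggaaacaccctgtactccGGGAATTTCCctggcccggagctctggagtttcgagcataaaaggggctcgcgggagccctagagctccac
Cxcl2: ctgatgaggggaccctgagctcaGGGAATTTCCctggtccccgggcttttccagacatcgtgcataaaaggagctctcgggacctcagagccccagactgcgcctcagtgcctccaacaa
Cxcl3: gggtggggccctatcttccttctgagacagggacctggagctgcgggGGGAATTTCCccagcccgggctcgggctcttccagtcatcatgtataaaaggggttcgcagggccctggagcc
Cxcl10: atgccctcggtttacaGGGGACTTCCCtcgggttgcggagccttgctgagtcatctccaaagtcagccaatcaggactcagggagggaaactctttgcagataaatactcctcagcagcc
These windows lie on chromosome 5 at 90891125 to 90891244 (Cxcl1, plus strand), 90903779 to 90903898 (Cxcl2, plus strand), 90785981 to 90786100 (Cxcl3, plus strand) and 92348890 to 92349009 (Cxcl10, minus strand). The matched bases begin 71 bases before the start in Cxcl1, 97 in Cxcl2 and 73 in Cxcl3, with the same 10 letters in all 3 genes. In Cxcl10 overlapping matches begin 104 and 103 bases before the start. RefSeq promoters were matched for 29 of the 41 ligands. Within 250 bases before the start, on either strand, the consensus was found in 4 of 8 inducible, 3 of 8 dual, 0 of 2 platelet and 0 of 11 homeostatic ligands, and in 5.67% of 27025 genes. The 3 dual ligands were Ccl9, Ccl1 and Ccl20. Ccl9 had a ratio of the highest to the lowest pool of only 1.21, and Ccl1 and Ccl20 had 1 and 13 reads over all pools. The letters TATAAA were found in 10 of the 29 ligands and in 14.3% of all genes, and the AP-1 site TGANTCA in 4 of 29 and in 7.82%. A match is a description of the letters only, and no binding was measured.

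The homeostatic ligands held 6.64 ± 1.08% of ligand TPM in females and 8.13 ± 0.608% in males (SD, n = 3 pools each). Cxcl12, which retains leukocytes and progenitors through Cxcr4, was the highest of them, at 206, 183 and 195 TPM in female and 189, 190.4 and 169 TPM in male nerves. It varied by no more than 1.22-fold between any 2 pools, and its log2FC was 0.05 (standard error 0.09, edgeR adjusted p = 0.94). Next came Cxcl14, Ccl21a and Cxcl13, of which Cxcl14, named after its values were seen, spanned 45.7 to 138 TPM in female and 97.9 to 131 TPM in male pools. Ccl25 averaged 6.76 TPM, Ccl28 averaged 0.363 TPM, and Cxcl15, named after its values were seen, had a total of 2.00 reads in F2 and 0 elsewhere.

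Cxcl12 transcripts encode 3 proteins that share their beginning and differ at the end, and the ends of the coding sequences are shown because the isoforms were present at unequal levels. They run from base 238 of the coding sequence in GENCODE M39 on GRCm39, with the bases after the shared 267 in capitals.
Cxcl12-202: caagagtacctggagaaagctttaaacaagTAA
Cxcl12-203: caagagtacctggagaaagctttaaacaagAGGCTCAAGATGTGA
Cxcl12-201: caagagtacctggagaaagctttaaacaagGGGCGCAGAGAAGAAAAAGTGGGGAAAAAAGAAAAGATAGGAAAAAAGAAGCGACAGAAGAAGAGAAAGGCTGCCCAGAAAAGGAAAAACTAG
The gene lies on chromosome 6 at 117144945 to 117158328 of GRCm39, plus strand. Cxcl12-202, the α form with 89 codons, held 72.4% of Cxcl12 TPM on average over the 6 pools, with a range of 68.0 to 75.9%. Cxcl12-201, the γ form with 119 codons and a strongly basic tail, held 13.9%, and Cxcl12-203, the β form with 93 codons, held 11.0%. In every pool the α form was highest, and the γ form ranged from 11.4 to 17.5%. Of other ligands, chosen after their values were seen, a transcript annotated as a polymorphic pseudogene held 53.4% of Cxcl11 TPM in F3, 44.3% in M3 and 100% in the other 4 pools. On average over the pools, 36.7% of Cxcl16 TPM belonged to a transcript annotated for nonsense-mediated decay and 31.1% of Ccl25 TPM to one with a retained intron.

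The Ccl21 genes encode a ligand of Ccr7 that lymphatic endothelium displays to guide dendritic cells and T cells. The mouse annotation holds several near-identical copies on chromosome 4, and the copies in the files, Ccl21a, Ccl21b, Ccl21d and Gm13304, could be told apart at few bases. Their coding sequences are 402 bases long, and those of Ccl21b, Ccl21d and Gm13304 are identical. Ccl21a differs from them by the substitutions T84A and C194T, counted from 1 at the first base of the coding sequence with the base of Ccl21a given first. Bases 61 to 216, printed 5′ to 3′ from GENCODE M39 on GRCm39, hold both, and capitals mark the differing positions.
Ccl21a: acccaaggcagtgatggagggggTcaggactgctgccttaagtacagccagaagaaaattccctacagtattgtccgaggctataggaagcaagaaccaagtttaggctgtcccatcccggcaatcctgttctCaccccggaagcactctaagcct
Ccl21d: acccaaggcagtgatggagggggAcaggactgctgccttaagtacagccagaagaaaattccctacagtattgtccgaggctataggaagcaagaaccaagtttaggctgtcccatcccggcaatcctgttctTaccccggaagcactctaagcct
Ccl21b: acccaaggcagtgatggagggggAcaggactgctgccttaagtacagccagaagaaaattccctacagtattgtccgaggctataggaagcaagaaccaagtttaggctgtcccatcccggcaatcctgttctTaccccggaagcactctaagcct
Ccl21a lies at 42772859 to 42773995 (minus strand), Ccl21b at 42255693 to 42256825 (plus strand) and Ccl21d at 41903610 to 41904743 (plus strand) of chromosome 4. The whole Ccl21b transcript of 869 bases is the Ccl21d transcript of 870 bases without its first base. Accordingly, 100% of the 31-base runs of Ccl21b and 99.9% of those of Ccl21d occur in another gene, compared with 80.4% for Ccl21a.

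Estimated levels of the copies followed these limits. Ccl21a was at 24.8, 29.01 and 100.0 TPM in female and 48.0, 91.4 and 93.7 TPM in male nerves, high in F3, M2 and M3. Ccl21d was at 13.1, 0 and 45.1 TPM in female and 18.2, 39.1 and 35.5 TPM in male nerves. Ccl21b was listed at 0, 15.9 and 0 TPM in female nerves and at 0 TPM in each male pool, and Gm13304 was listed at 0 in all 6 pools. F2 was the sole pool in which Ccl21b had reads and also the sole pool in which Ccl21d had none, and since the transcripts are the same but for 1 base, these values do not separate the genes. Ccl21b and Ccl21d as a sum held 34.6, 35.3 and 31.1% of Ccl21 TPM in F1 to F3 and 27.5, 29.98 and 27.5% in M1 to M3, so F2 did not stand apart once the copies were summed.

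**Figure D3:**
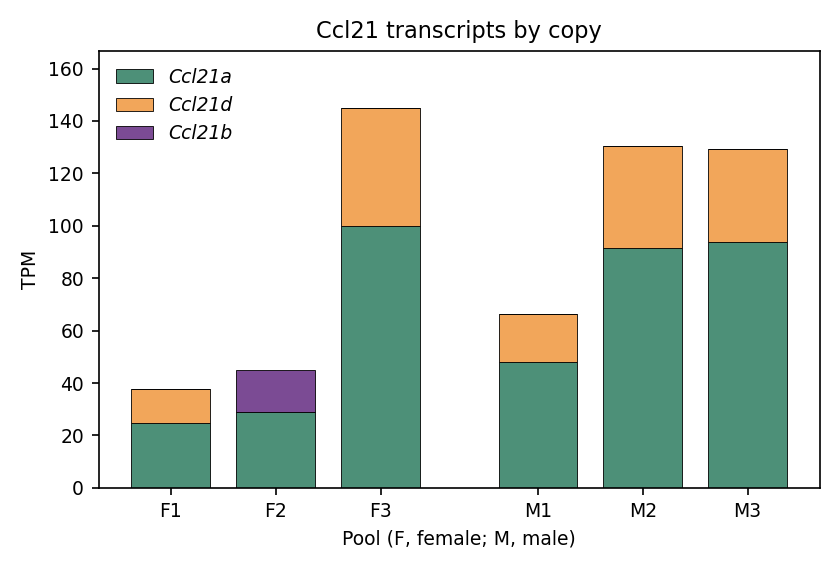
Stacked bars of TPM assigned to Ccl21a, Ccl21d and Ccl21b in each pool, with female pools left of male pools. F2 is the only bar with Ccl21b (15.9 TPM) and without Ccl21d, and the totals run from 37.9 TPM in F1 to 145 TPM in F3.

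Summed over the copies, Ccl21 was at 37.9, 44.9 and 145 TPM in female and 66.3, 131 and 129 TPM in male nerves. The sexes overlapped, and the log2FC was -0.49 (standard error 0.67, edgeR adjusted p = 0.93). For Ccl21a alone it was -0.57 (standard error 0.69, edgeR adjusted p = 0.92) and for Ccl21d -0.64 (standard error 1.52, edgeR adjusted p = 0.96). A single pool moved these values, since that of Ccl21a was -0.23 without F1, -0.28 without F2 and -1.51 without F3, and that of Ccl21d was -0.05 without F2 and -2.23 without F3. With the reads of Ccl21d added to those of Ccl21b and Gm13304, a sum chosen after the data were seen, the log2FC was -0.29 with a smaller standard error of 0.61 (edgeR adjusted p = 0.95). The 10 lymphatic endothelial markers summed to 473 to 574 TPM in female and 465 to 543 TPM in male pools, most of it Pdpn, Ptx3 and Reln. Mmrn1, named after its values were seen, was at 3.59, 3.90 and 11.1 TPM in female and 6.70, 11.2 and 5.43 TPM in male pools. Prox1, Flt4 and Lyve1, named later too, were also highest in F3 and M2, whereas Pdpn and Ptx3 were highest in F1. The 10 markers of B cells and lymph node came to 11.5 to 12.3 TPM in female and 12.8 to 15.6 TPM in male pools. F3, the pool with the most Ccl21, was also the pool with the most erythroid and adipocyte transcripts, whereas M2 and M3 were not high in these. The part of lymphatic vessels, lymph node or these other markers in the Ccl21 levels was not tested.

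Ccl19, the other Ccr7 ligand, was at 26.6, 28.8 and 31.4 TPM in female and 34.3, 32.8 and 35.3 TPM in male nerves, so that each male pool lay above each female pool. Its log2FC was -0.22 (standard error 0.10, edgeR adjusted p = 0.83). Of the Ccl19 TPM, 86.8% belonged to Ccl19-202, annotated as a processed transcript, and 8.69 and 4.54% to the protein-coding transcripts Ccl19-201 and Ccl19-203. Ccl19 shared 64.8% of its 31-base runs with other genes, mostly with Gm21104, which was chosen later and was at 23.3, 21.8 and 26.5 TPM in female and 27.6, 22.8 and 32.5 TPM in male nerves. When the reads of all genes sharing such runs with Ccl19 were summed, a choice made after the data were seen, the log2FC was -0.21 (standard error 0.11, edgeR adjusted p = 0.84).

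Ccl27a, a ligand of Ccr10 that is best known from skin, was at 24.0, 27.02 and 29.3 TPM in female and 25.3, 26.7 and 25.8 TPM in male nerves. Ccl27a-204 and Ccl27a-202, the highest of several protein-coding transcripts, held 18.7 and 18.5% of its TPM on average. Ccl27a-210, annotated with a retained intron, held 16.4%, and Ccl27a-218, annotated for nonsense-mediated decay, held 8.48%. The gene shared 57.2% of its 31-base runs with other genes. Gm20878, which shared the most, was at 5.12, 3.88 and 6.49 TPM in female and 3.65, 3.98 and 3.82 TPM in male nerves, and Gm13306 was at 1.28, 0.901 and 2.36 TPM in female and 1.53, 2.33 and 0.809 TPM in male nerves. The sexes overlapped for Ccl27a, Gm20878 and Gm13306. Gm21586 and Gm21953 were listed at 0 in all pools. The 10 keratinocyte markers summed to 4.59 to 6.23 TPM in female and 5.68 to 6.37 TPM in male pools, nearly all of it Krt10. The log2FC was 0.14 for Ccl27a (standard error 0.11, edgeR adjusted p = 0.88) and 0.18 for the summed copies (standard error 0.11, edgeR adjusted p = 0.85).

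Between female and male nerves, 33 of the 41 ligands passed the filter of a CPM (counts scaled to library size) of at least 0.5 in at least 3 pools and 0 were called at an adjusted p under 0.1 in edgeR. In that fit 0.0613% of the 16310 genes tested were called. An unadjusted p under 0.05 was reached by 3 ligands, Ccl17, Ccl11 and Ccl22, against 6.11% of all genes. The log2FC was above 0 for 22 ligands and below 0 for 11, against 8248 and 8062 of all genes tested. Its median was 0.10, against 0.00162 over all genes tested. By class the median was 0.12 over 14 inducible, 0.12 over 8 dual, 0.49 over 2 platelet and 0.04 over 9 homeostatic ligands. Single pools weighed on these values. Of the 34 ligands with a mean of at least 1 TPM, 13 were highest in F1 and 9 in M3. DESeq2 called 2 ligands, Ccl17 and Ccl22, both higher in female nerves, where it called 0.975% of all genes and 0.399% as higher in female nerves. The 8 ligands that did not pass the filter were Ccl21b, Xcl1, Ccl20, Cxcl17, Ccl1, Cxcl15, Ccl26 and Ccl19-ps1. Ccl26 had 0 reads in 384129759 estimated read pairs, which allows a level of up to 0.00781 CPM by a limit of 3 counts, for counting error only.

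**Figure D4:**
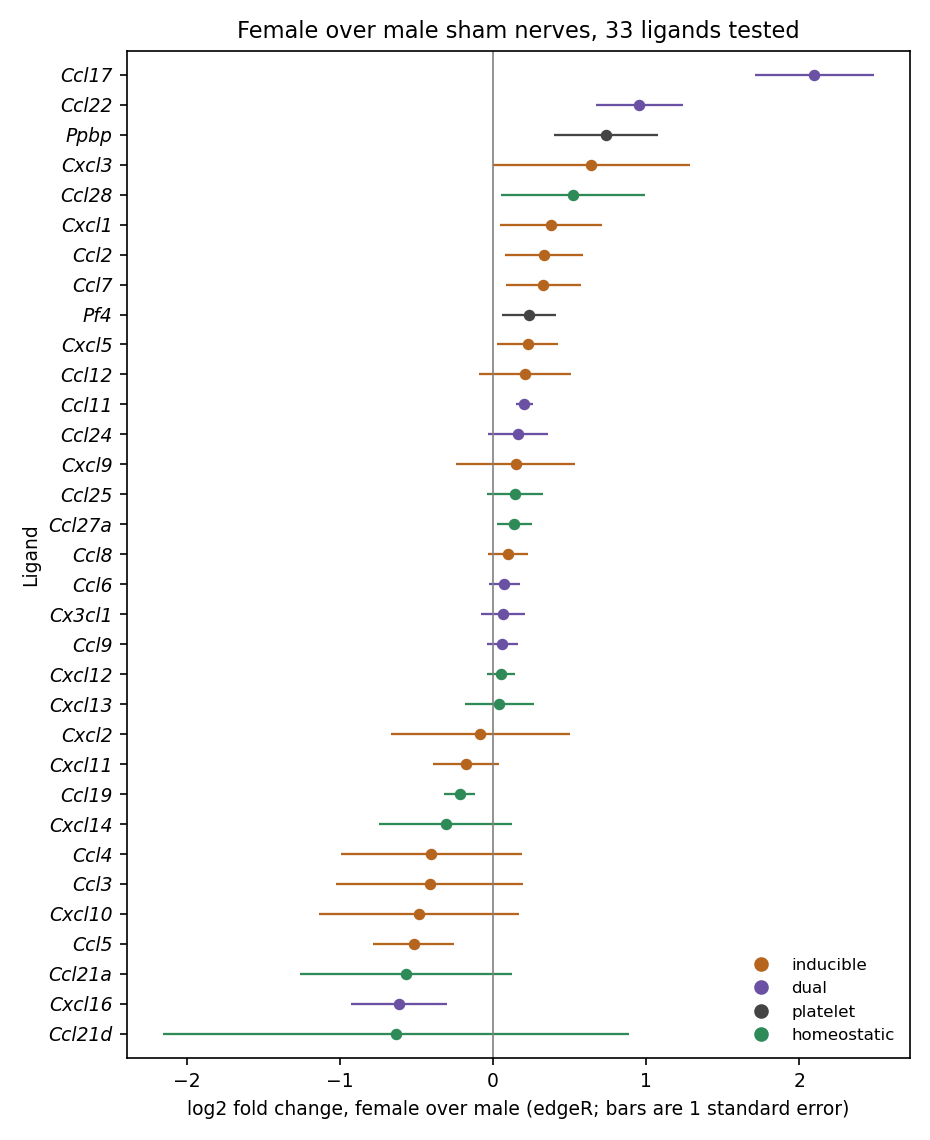
log2FC for the 33 ligands tested (edgeR; points, estimates colored by class; bars, 1 standard error). Ccl17 at 2.10 and Ccl22 at 0.96 lie farthest above 0, and Ccl21d at -0.64 lies farthest below it with the widest bar.

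Ccl17, a dual ligand that attracts T cells through Ccr4, had the smallest p of the ligands. It was at 5.80, 3.95 and 2.68 TPM in female nerves, from 62.0, 45.0 and 35.0 reads, and at 1.35, 0.962 and 0.504 TPM in male nerves, from 20.0, 12.0 and 6.00 reads. All female pools lay above all male pools. The fold of female over male was 4.28, with a log2FC of 2.10 (standard error 0.39, edgeR unadjusted p = 6.96e-04, adjusted p = 0.37). DESeq2 gave 2.13 with an adjusted p of 0.0059, and edgeR without the filter on low counts gave 2.11 with an adjusted p of 0.020. The 180 reads of Ccl17 over all pools are few, and the gene lay at percentile 19.8 of mean TPM.

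Ccl22, the other ligand of Ccr4, was at 7.35, 8.94 and 4.36 TPM in female and 3.72, 2.71 and 4.05 TPM in male nerves. The sexes did not overlap, although F3 lay close to M3. Its log2FC was 0.96 (standard error 0.28, edgeR unadjusted p = 0.011, adjusted p = 0.63), and DESeq2 gave 0.96 with an adjusted p of 0.0496. Without F2, the pool with muscle transcripts, edgeR's log2FC was 2.13 for Ccl17 and 0.72 for Ccl22. The genes for Ccl22 and Ccl17 lie within 67.4 kb of chromosome 8, from 95471226 to 95538664 of GRCm39. Cx3cl1, the membrane-bound ligand whose gene lies between them, chosen later for that position, was at 3.19, 2.17 and 1.98 TPM in female and 3.20, 2.27 and 1.95 TPM in male nerves, with a log2FC of 0.06 (standard error 0.14, edgeR adjusted p = 0.96).

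Mature dendritic cells are a known source of Ccl17 and Ccl22. The 8 markers of those cells summed to 228 to 238 TPM in female and 235 to 241 TPM in male pools, of which Fscn1 made up the most, and Il12b averaged 0.10 TPM. Only Socs2 of these 8 was higher in each female pool than in each male pool, as were 4.43% of all genes tested. Ccr4, the receptor, averaged 0.110 TPM in female and 0.0981 TPM in male nerves. The part of dendritic cells in the levels of either ligand was not tested.

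**Figure D5:**
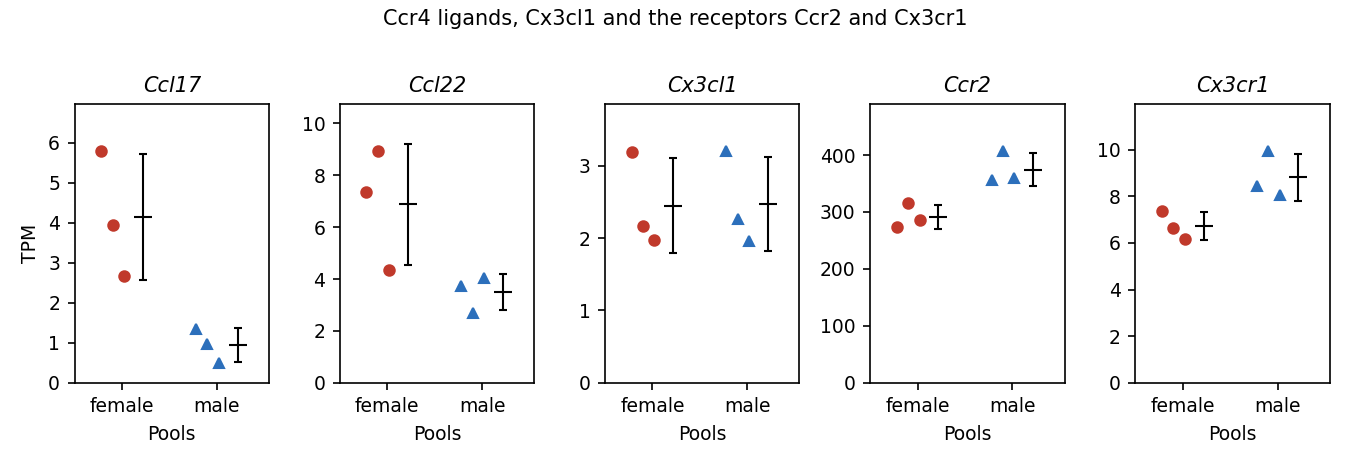
TPM per pool (red circles, female; blue triangles, male) with bars for the mean and SD of each sex (n = 3 pools), for the Ccr4 ligands Ccl17 and Ccl22, for Cx3cl1, whose gene lies between them, and for the receptors Ccr2 and Cx3cr1. Female pools lie above male pools for Ccl17 and Ccl22 and below them for Ccr2 and Cx3cr1, and they overlap for Cx3cl1.

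Ccl11, eotaxin, which attracts eosinophils through Ccr3, was at 255, 253 and 229 TPM in female and 201, 208 and 205 TPM in male nerves. Each female pool was above each male pool, by a small margin relative to the level. The log2FC was 0.20 (standard error 0.06, edgeR unadjusted p = 0.0067, adjusted p = 0.56). Ccl5, made by T cells and macrophages, was at 16.5, 18.3 and 18.3 TPM in female and 27.1, 16.3 and 33.9 TPM in male nerves, with M2 below the female pools. Its log2FC was -0.52 (standard error 0.26, edgeR adjusted p = 0.83). Over the ligands tested, TPM of the sexes did not overlap for 4 of 33, 12.1%, against 11.0% of all genes tested. The female pools were higher for 3 of these ligands (4.43% of all genes) and the male pools for 1, Ccl19 (6.57% of all genes).

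Of 25 chemokine receptors and atypical receptors, 19 passed the filter and 0 were called in edgeR, with 2 at an unadjusted p under 0.05, against 0.0613% called and 6.11% under that p over all genes tested. DESeq2 called 2, Ccr2 and Cx3cr1, and 0.975% of all genes. Ccr2, the receptor of Ccl2, Ccl7 and Ccl12, was the highest, at 273, 315 and 286 TPM in female and 357, 407 and 359 TPM in male nerves. Cx3cr1, the receptor of Cx3cl1, was at 7.36, 6.63 and 6.19 TPM in female and 8.42, 9.95 and 8.06 TPM in male nerves. For both genes every male pool lay above every female pool, as for 6.57% of all genes tested, and for the other 17 receptors tested the sexes overlapped. The log2FC was -0.45 for Ccr2 (standard error 0.10, adjusted p = 0.42 in edgeR and 0.0071 in DESeq2) and -0.40 for Cx3cr1 (standard error 0.09, adjusted p = 0.42 in edgeR and 0.036 in DESeq2). Without F2 the edgeR values were -0.47 for Ccr2 and -0.39 for Cx3cr1. The sums of the 14 macrophage markers did not overlap between the sexes either, and 6 of the 14 were higher in each male pool than in each female pool, as were 6.57% of all genes tested. The largest part of these sums was Lyz2, which averaged 2045 TPM in female and 2829 TPM in male pools. Mrc1, Cd163, Mertk and Itgam went the other way, with a higher mean in female pools. The part of macrophages in the receptor levels was not tested.

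Ccr1, Ackr1 and Ackr3, also abundant, overlapped between the sexes. Ccr1, the receptor of Ccl6 and Ccl9, was at 158, 138 and 116 TPM in female and 121, 109 and 155 TPM in male nerves. Ackr1, which takes up chemokines on endothelium and red cells, was at 76.5, 85.8 and 78.9 TPM in female and 82.1, 67.5 and 70.5 TPM in male nerves. Ackr3, a scavenger of Cxcl12, was at 92.2, 66.4 and 77.9 TPM in female and 78.8, 74.0 and 69.3 TPM in male nerves. The log2FC values ran from 0.01 for Ccr1 to 0.15 for Ackr1, with adjusted p of 0.84 to 0.999 from edgeR. Over the 19 receptors tested, the median log2FC was -0.08, with 7 above 0 and 12 below. Over all genes tested, 8248 lay above 0 and 8062 below.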

How the data were processed

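The 6 libraries of sham-operated nerves were used, 3 female and 3 male pools of 2 mice each. The authors' libraries were poly-A selected, strand-specific and read from both ends, and reads were trimmed (Trimmomatic 0.39). Salmon estimated transcript levels (version 1.5.2 per the labels, an earlier version in the study's supplement). The annotation is named M27 in the files and M29 in the study's methods. The deposited values are, per transcript, estimated counts of read pairs, which need not be whole and carry no further normalization, and TPM, which the authors' software scaled within each sample. The deposited lengths and effective lengths were used for length offsets. The authors' own gene-level fold changes were not used.

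Here the deposited estimated counts and TPM were summed per gene symbol for the ligands and per gene for the fits (140789 transcripts, 54309 genes), and counts were rounded to whole numbers. Females were compared with males by edgeR 4.0.16 (quasi-likelihood test, robust, TMM factors, no covariate) on the 16310 genes that reached a CPM of 0.5 in 3 or more pools. Benjamini-Hochberg adjustment covered all genes tested, with a threshold of 0.1, and the common biological coefficient of variation was 0.154. DESeq2 1.42.0 was an alternative. The others were RLE factors, no filter, a CPM of at least 1 in all 6 pools, transcript length offsets, the replicate number as a block, each pool left out in turn, stricter thresholds, near-identical copies summed, and class shares by counts. The smallest p that exact permutation of 3 against 3 pools allows is 0.1. Percentiles are of mean TPM among the genes tested, and percentages of an isoform are of the gene's TPM, averaged over pools. Runs of 31 bases were compared among GENCODE M39 transcripts, which held 139544 of the 140789 transcripts in the files, and coordinates are from GENCODE M39 on GRCm39. Promoters are from RefSeq on GRCm38.p6. The fits ran in R 4.3.3 and were tested on simulated data, and tables and plots were made in Python 3.11.15. Counts of 2 pools of a sex differed by a chi-square of 25.4 to 68.8 per gene, so none were the same library.

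The ligands, classes, marker lists and tests were chosen with earlier results of these data known. Values per pool are given for the 12 ligands with the highest mean TPM, the 6 with the smallest p, all Ccl21 and Ccl27 copies, the 5 receptors with the highest mean TPM and the 2 with the smallest p, and other genes with values per pool are marked as chosen later. A receptor that this rule names is not reported here.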

Additional observations from a re-analysis of the deposited data

How the results depend on the processing

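DESeq2 called 2 ligands (Ccl17 and Ccl22), edgeR without a filter on low counts called 1 (Ccl17, adjusted p = 0.020), and the other alternatives called 0, as the reported fit did. Among these, the 2 stricter thresholds could not call any, and the stricter filter left 30 ligands and did not test Ccl17. Of receptors DESeq2 called 2 and edgeR without a filter 1, Ccr2 (adjusted p = 0.081). Over all genes, edgeR called 10, against 159 in DESeq2, 49 of 31616 without a filter (0.155%), 4 with the stricter filter and 4 to 9 with a pool left out. The cause of these differences was not tested. With a pool left out, log2FC, female relative to male, ranged from 1.79 to 2.44 for Ccl17, 0.72 to 1.21 for Ccl22, 0.003 to 0.488 for Ccl2, 0.0424 to 0.479 for Ccl7, 0.0827 to 0.409 for Pf4, 0.364 to 0.981 for Ppbp, -1.51 to -0.235 for Ccl21a and -2.23 to -0.0513 for Ccl21d, and edgeR called 0 ligands each time. Of 24 genes followed, 9 changed sign in at least 1 alternative. Cxcl5 had the largest log2FC of these 9 in the reported fit, at 0.23 (standard error 0.20). With a pool left out they ranged from -0.0105 to 0.156 (Ccl6), -0.0234 to 0.131 (Ccl9), -0.0699 to 0.197 (Ccl8), -0.0204 to 0.347 (Cxcl5), -0.373 to 0.658 (Cxcl2), -0.0175 to 0.111 (Cxcl12), -0.0257 to 0.506 (Ccl12), -0.0901 to 0.165 (Ccr1) and -0.0287 to 0.215 (Ackr3). Replicate numbers did not pair the samples (correlations of deviations from the sex means of -0.18, -0.16 and -0.15), and the replicate block gave 5 called genes in all, 0 ligands and 0 receptors called, and a log2FC of 0.0964 for Cxcl2. Counted by reads in place of TPM, the shares of ligand transcripts were 13.9% homeostatic, 27.2% inducible, 52.2% dual and 6.76% platelet, since counts grow with transcript length, against 7.38, 42.3, 35.7 and 14.6% by TPM. With dual ligands counted as inducible that class held 78.0%. Ligands with few reads, such as Ccl17 with 180 over 6 pools, limit what 3 pools per sex can show, and the order of the Ccl21 copies b and d is not resolved at any depth of these transcripts.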
